A study of Mus musculus with 4 samples.

Results

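The 9 genes described here belong to rod photoreceptors. They are Gnat1, Sag, Pde6a, Pde6b, Cnga1, Cngb1 and Rom1, which serve the light response and the outer segment, and Nrl and Nr2e3, which encode transcription factors of rod identity. They were taken by symbol from a table of 23278 genes, and all 9 were found. Their mean level was at least 1 FPKM over the 4 libraries and their status was usable in each, as for 13150 genes in all.

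Rods signal light through a G protein cascade. The activated visual pigment exchanges the nucleotide on transducin, whose rod alpha subunit is encoded by Gnat1. Transducin relieves the inhibition of the phosphodiesterase PDE6, built from the catalytic subunits Pde6a and Pde6b, and the fall of cyclic GMP closes the channel of Cnga1 and Cngb1. Arrestin, the product of Sag, ends the signal. Nrl commits photoreceptor precursors to the rod fate and activates rod genes together with Crx, and Nr2e3 acts downstream of Nrl and represses cone genes. In the mouse, rod outer segments are still growing at the age studied, before the eyes open.

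RNA came from entire retinas at postnatal day 10, and there was 1 library for each of 4 genotypes. The stabilized knockout library had the genotype NdpKO;Ctnnb1flex3/+;Pdgfb-CreER, the knockout library NdpKO, the stabilized library Ctnnb1flex3/+;Pdgfb-CreER, and the last was WT. Ndp encodes Norrin, a secreted ligand of retinal vessels. Recombination of the Ctnnb1flex3 allele gives a stabilized beta-catenin, and Pdgfb-CreER, the tamoxifen-inducible recombinase, is used to act in endothelial cells and is not a rod driver. All mice, WT included, were given 20 ug of 4HT intraperitoneally at postnatal day 3, on a mixed strain background with at least C57BL6 and 129. Each library pooled 3 RNA batches of 4 to 8 retinas from 2 to 4 mice. The comparisons therefore set 1 library against 1, with no replicates and no test, and the intervals printed are those the authors deposited for each FPKM.

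The label check and the other cell types bear on every result. Ndp was at 0.869 FPKM in the stabilized knockout, 0.873 FPKM in the knockout and 2.35 FPKM in the stabilized library, against 2.98 FPKM in WT. Xist was at 1.28 FPKM in the stabilized knockout and 1.25 FPKM in the knockout, against 130.4 FPKM in the stabilized and 135 FPKM in the WT library, and the Y-linked Ddx3y was at 20.1 and 18.7 FPKM in the first pair and at 0.173 and 0.0896 FPKM in the second. Ndp genotype and sex cannot be told apart here. The FPKM summed to between 405525 and 427109 per library. Read totals were not at hand, and the width of the deposited intervals placed the other libraries at between 0.428 and 0.579 of the depth of WT, as an approximation. Markers of cones, bipolar cells, Muller glia, amacrine and horizontal cells and ganglion cells were all measured. No listed gene that was in the table was at exactly 0. The erythroid gene Hba-a2 was at 0.00073 FPKM in the knockout, with an interval from 0 to 0.203.

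Sequences upstream of the rod genes are shown because Crx and Nrl, the factors that act on rod promoters, were themselves measured. RefSeq promoter windows on GRCm38.p6, each with 250 bases before and 50 bases after the start site, were at hand for 7 of the 9 genes and not for Gnat1 and Pde6a. They were searched on both strands for TAATCC, the core letters bound by Crx (GGATTA on the other strand), and for TGCTGA, core letters bound by Nrl (TCAGCA on the other strand). The motifs do not overlap in these windows. TAATCC was in 3 of the 7 windows and in 7.06% of all 32851 promoters, and TGCTGA was in 2 of the 7 and in 19.5% of all. The 4 windows with a match are printed 5′ to 3′ on the strand of the gene, with the matches in capitals.
Sag, chr1:87803430-87803729, plus strand: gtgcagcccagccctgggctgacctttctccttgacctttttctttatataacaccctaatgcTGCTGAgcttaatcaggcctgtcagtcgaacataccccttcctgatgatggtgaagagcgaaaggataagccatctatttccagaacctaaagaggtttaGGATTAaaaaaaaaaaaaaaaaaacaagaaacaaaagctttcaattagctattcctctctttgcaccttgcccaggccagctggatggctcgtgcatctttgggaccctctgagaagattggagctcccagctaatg
Pde6b, chr5:108388123-108388422, plus strand: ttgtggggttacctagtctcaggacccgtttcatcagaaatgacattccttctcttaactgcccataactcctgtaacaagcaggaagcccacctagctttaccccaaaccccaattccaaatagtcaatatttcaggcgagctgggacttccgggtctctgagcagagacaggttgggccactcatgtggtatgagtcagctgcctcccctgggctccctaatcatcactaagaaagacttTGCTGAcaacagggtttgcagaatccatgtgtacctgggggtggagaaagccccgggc
Cnga1, chr5:72642703-72643002, minus strand: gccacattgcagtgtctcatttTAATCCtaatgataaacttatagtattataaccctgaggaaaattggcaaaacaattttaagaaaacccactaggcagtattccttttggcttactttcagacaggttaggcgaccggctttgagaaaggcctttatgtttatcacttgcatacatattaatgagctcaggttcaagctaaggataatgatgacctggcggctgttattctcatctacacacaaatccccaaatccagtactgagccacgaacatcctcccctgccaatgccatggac
Cngb1, chr8:95306536-95306835, minus strand: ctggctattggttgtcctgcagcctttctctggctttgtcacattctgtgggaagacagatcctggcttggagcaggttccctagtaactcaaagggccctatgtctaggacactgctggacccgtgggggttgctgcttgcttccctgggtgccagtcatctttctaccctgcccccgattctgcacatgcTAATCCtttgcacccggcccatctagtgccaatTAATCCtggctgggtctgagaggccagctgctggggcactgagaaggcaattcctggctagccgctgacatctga
Cngb1 held TAATCC at both -58 to -53 and -25 to -20 from its start site, and Cnga1 at -228 to -223. In Sag the reverse letters GGATTA lay at -87 to -82 and TGCTGA at -187 to -182, and in Pde6b TGCTGA lay at -8 to -3. The windows of Nr2e3, Nrl and Rom1 held neither set of letters. The Nrl window was set on a RefSeq start site inside the locus that the deposited table gives, so it does not cover the upstream edge of that locus. These are matches of letters only, and no binding was measured.

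The rod genes spanned a wide range of levels. Together the 9 genes held 1.14% of all FPKM in the stabilized knockout, 1.23% in the knockout and 1.08% in the stabilized library, against 1.08% in WT. Since FPKM is scaled to transcript length, levels can be set side by side between genes. Sag was highest in each of the 4 libraries, at place 5 of all tested genes in the stabilized knockout, 6 in the knockout and 13 in the stabilized library, against 7 in WT, and its interval lay apart from that of the next rod gene. Nrl, Nr2e3 and Rom1 followed with overlapping intervals in every library. Pde6b came next in the stabilized knockout, the stabilized library and WT, and Gnat1 stood just above it in the knockout with overlapping intervals. Cngb1, Cnga1 and Pde6a closed the order, with Pde6a at place 762 of all tested genes in the stabilized knockout, 612 in the knockout and 702 in the stabilized library, against 931 in WT. Cngb1 and Cnga1 overlapped in the stabilized knockout, the knockout and WT, and Cnga1 and Pde6a overlapped in the stabilized library.

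**Figure D1:**
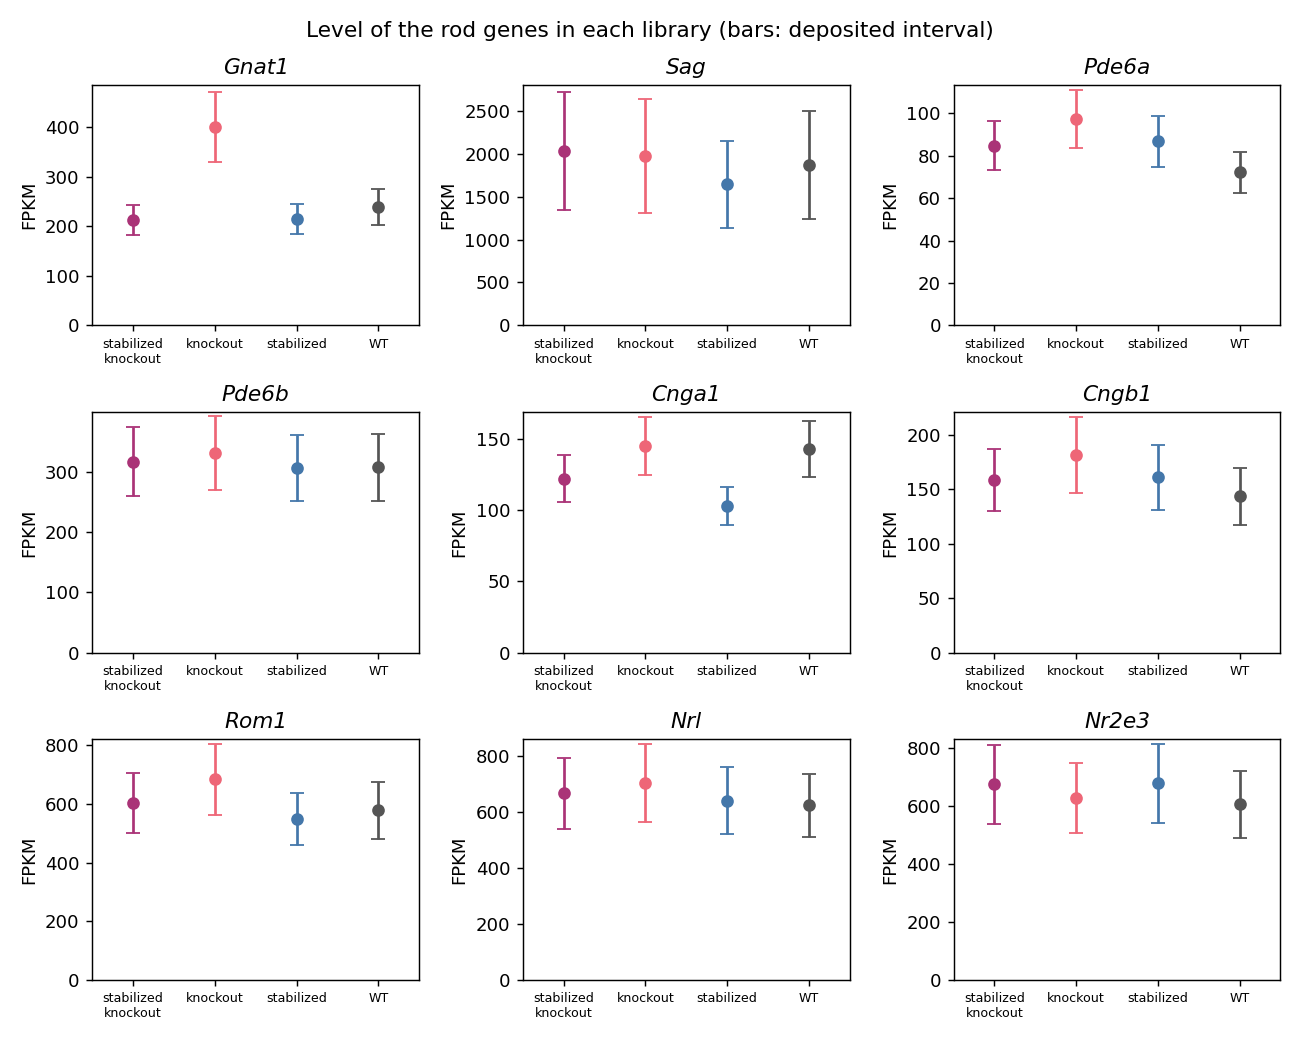
Level of each of the 9 rod genes in FPKM (vertical axis, from 0, with its own scale per gene) in the 4 libraries, 1 library per genotype. Points are the deposited FPKM and bars the deposited intervals. Gnat1 stands at 401 FPKM in the knockout and between 213 and 239 FPKM in the other libraries, and the intervals of Sag, Pde6b, Cngb1, Rom1, Nrl and Nr2e3 overlap across all 4.

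Gnat1 (chromosome 9, 107674474 to 107679592, minus strand, protein coding, mm10) had the widest range of the 9. It was at 213 FPKM in the stabilized knockout (182 to 243), 401 FPKM in the knockout (330.5 to 471) and 215 FPKM (184 to 246) in the stabilized library, against 239 FPKM in WT (204 to 275). The knockout stood alone: its interval did not overlap any other, while the other 3 overlapped one another. The level in the knockout was 1.67 times that in WT, a log2 ratio of 0.74 on FPKM plus 0.5, the scale of all log2 ratios here. The stabilized knockout was at 0.531 times the knockout (log2 -0.91) and at 0.888 times WT (log2 -0.17). Both Gnat1 contrasts past 1.5-fold share the knockout library, so they are not separate observations. Whole-retina RNA cannot tell fewer rods from less RNA per rod, for Gnat1 and for all genes below.

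The phosphodiesterase subunits differed in how far they varied. Pde6a (chromosome 18, 61220499 to 61289718, plus strand) was at 84.7 FPKM in the stabilized knockout (73.1 to 96.2), 97.3 FPKM in the knockout (83.7 to 111) and 86.8 FPKM (74.9 to 98.7) in the stabilized library, against 72.2 FPKM in WT (62.6 to 81.8). WT was lowest, and only the knockout interval was apart from it, at 1.35 times WT (log2 0.43). Pde6b (chromosome 5, 108388373 to 108431742, plus strand) was at 317 FPKM in the stabilized knockout, 331 FPKM in the knockout and 307 FPKM in the stabilized library, against 307 FPKM in WT. It had the narrowest range of the 9, with its highest value 1.08 times its lowest. The level of Pde6a relative to Pde6b was 0.267 in the stabilized knockout, 0.294 in the knockout and 0.283 in the stabilized library, against 0.235 in WT.

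Cnga1 relative to Cngb1, the other subunit of the cyclic GMP-gated channel, was lower than WT in every other library, and lowest in the stabilized library. Cnga1 (chromosome 5, 72603697 to 72642752, minus strand), the pore-forming subunit, was at 122 FPKM in the stabilized knockout (105 to 138), 145 FPKM in the knockout (124 to 165) and 103 FPKM (89.1 to 116) in the stabilized library, against 143 FPKM in WT (123 to 163). The stabilized library was lowest and its interval was apart from those of the knockout and WT, at 0.719 times WT (log2 -0.47), short of 1.5-fold. Cngb1 (chromosome 8, 95239043 to 95306585, minus strand), the modulatory subunit, was at 159 FPKM in the stabilized knockout, 181 FPKM in the knockout and 161 FPKM in the stabilized library, against 144 FPKM in WT, all with overlapping intervals. The level of Cnga1 relative to Cngb1 was 0.768 in the stabilized knockout, 0.798 in the knockout and 0.637 in the stabilized library, against 0.994 in WT.

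Sag and Rom1 had overlapping intervals throughout. Sag (chromosome 1, 87803680 to 87845157, plus strand) was at 2029 FPKM in the stabilized knockout (1338 to 2720), 1973 FPKM in the knockout (1305 to 2641) and 1642 FPKM (1134 to 2150.3) in the stabilized library, against 1869 FPKM in WT (1244 to 2494). Its interval reached up to 34.0% from the value, the widest of the 9 genes, so a difference of the size seen could not be resolved. Rom1 (chromosome 19, 8927382 to 8929356, minus strand), a tetraspanin of the disc rim, was at 603 FPKM in the stabilized knockout, 683 FPKM in the knockout and 549 FPKM in the stabilized library, against 579 FPKM in WT. Relative to its partner Prph2 it stood at 0.919, 1.000, 0.879 and 0.928 in the same libraries.

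The identity factors were close to flat. Nrl (chromosome 14, 55518978 to 55524965, minus strand) was at 668 FPKM in the stabilized knockout (540.2 to 796), 704 FPKM in the knockout (564 to 844) and 641 FPKM (521 to 761) in the stabilized library, against 624 FPKM in WT (512 to 737). Nr2e3 (chromosome 9, 59942771 to 59950079, minus strand) was at 674 FPKM in the stabilized knockout, 627 FPKM in the knockout and 677 FPKM in the stabilized library, against 605 FPKM in WT. The highest value was 1.13 times the lowest for Nrl and 1.12 times for Nr2e3, and all intervals overlapped. Gnat1 relative to Nrl was 0.318 in the stabilized knockout, 0.569 in the knockout and 0.335 in the stabilized library, against 0.383 in WT.

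**Figure D2:**
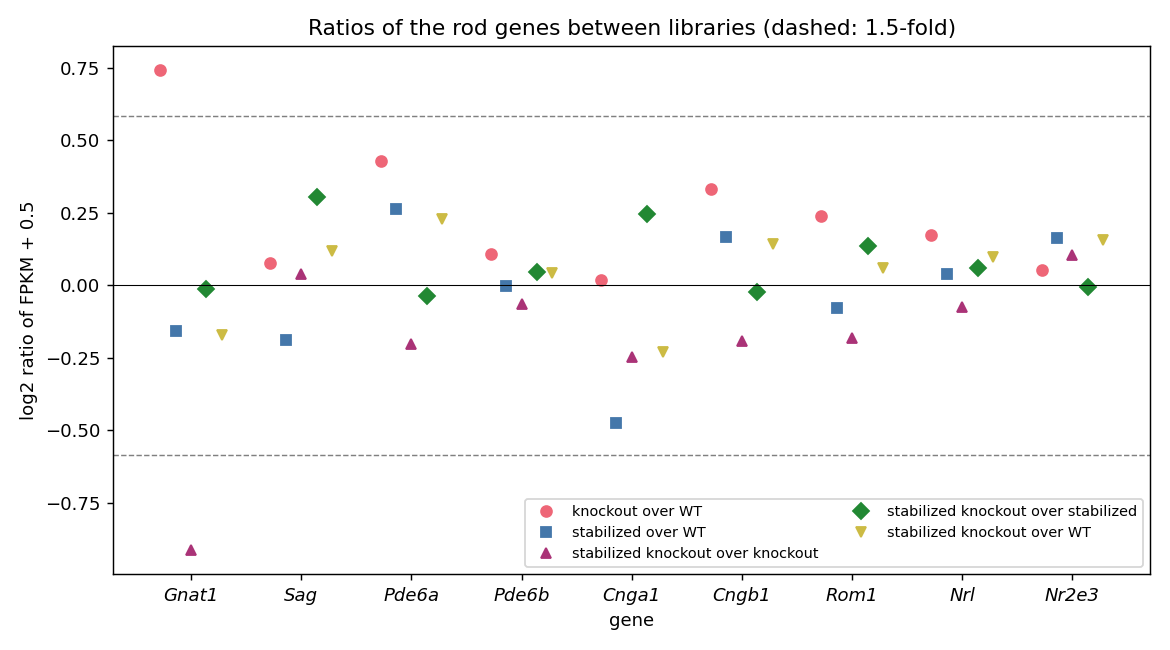
Log2 ratio of FPKM plus 0.5 (vertical axis) of each rod gene (horizontal axis) in 5 comparisons, 1 library against 1, with dashed lines at 1.5-fold. Gnat1 lies past the lines in the knockout over WT (0.74) and in the stabilized knockout over the knockout (-0.91), and the 8 other genes lie between the lines in all 5 comparisons.

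The knockout against WT asks what differs when Norrin is lost. Of the 9 rod genes 1, Gnat1, was at least 1.5-fold higher and none lower, against 0.966% of all tested genes higher and 1.22% lower. Among the 1331 tested genes with a mean of at least 50 FPKM, short RNA genes left out, 0.225% were 1.5-fold higher and 0.301% lower, and Gnat1 was at place 3 from the top. All 9 ratios were above 0, beside 5741 of all 13150 tested genes. They ran from 0.02 for Cnga1 to 0.74, with a median of 0.17 beside -0.02 over all tested genes. When ratios were centred on the photoreceptor regulators instead, Cnga1 lay below 0 and the other 8 above. Intervals were apart for Gnat1 and Pde6a, 2 of 9, against 0.76% of all tested genes. Shares of intervals apart, here and below, are over tested genes of every level. They were not counted for the genes of at least 50 FPKM alone. Apart from Gnat1 the summed level of the rod genes was 4741 FPKM in the knockout, against 4342 FPKM in WT.

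The stabilized library against WT asks about beta-catenin activation in vessels with Norrin present. None of the 9 rod genes was 1.5-fold apart, against 1.67% of tested genes higher and 1.71% lower, and 0.451% and 0.902% of those of at least 50 FPKM. As deposited, 220 tested genes were higher and 225 lower, and after rescaling to the same total 319 and 214. Centred on the photoreceptor regulators, the numbers were 156 and 416, and Cnga1 then passed 1.5-fold. The median of the rod genes was -0.00 and that of all tested genes -0.02. The ratios ran from -0.47 for Cnga1 to 0.26 for Pde6a. Of the 9, 4 were above and 5 below 0, beside 6040 and 7078 of all 13150 tested genes. Pde6b, at -0.00, changed sign when ratios were centred on all genes or rescaled, and Nrl, at 0.04, when centred on the regulators. Cnga1 was the 1 rod gene with intervals apart, against 3.33% of all tested genes.

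The stabilized knockout against the knockout asks the same in the absence of Norrin. Of the 9 rod genes 1, again Gnat1, was 1.5-fold lower and none higher, against 0.92% of tested genes lower and 1.76% higher. Among genes of at least 50 FPKM 0.301% were 1.5-fold lower and 0.376% higher, and Gnat1 had the place 2 from the bottom. The median of the rod genes was -0.18, beside 0.03 over all tested genes. Of the 9 ratios 7 were below 0, beside 5323 of all 13150 tested genes. The 2 above 0 were those of Sag (0.04) and Nr2e3 (0.11). Gnat1 alone had intervals apart, against 1.75% of tested genes. Cnga1 had a log2 ratio of -0.25, Pde6a -0.20, Cngb1 -0.19 and Rom1 -0.18, each with overlapping intervals.

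No rod gene was 1.5-fold apart between the stabilized knockout and either of the other libraries. Against the stabilized library, where the background was 0.981% higher and 0.692% lower (0.225% and 0.0751% at 50 FPKM or more), ratios ran from -0.04 to 0.31 with a median of 0.05, and that of all tested genes was 0.04. Sag was highest there (0.31), at 2029 FPKM in the stabilized knockout and 1642 FPKM in the stabilized library. Against WT, where the background was 1.79% higher and 1.07% lower (0.451% and 0.376% at 50 FPKM or more), they ran from -0.23 for Cnga1 to 0.23 for Pde6a with a median of 0.10, and that of all tested genes was 0.01. None of the 9 had intervals apart in either comparison, against 0.525% of tested genes for the stabilized library and 2.48% for WT.

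The ratio for stabilization differed most between the Ndp backgrounds for Gnat1. It was -0.91 in the knockout background and -0.16 in the WT background, a difference of -0.76. Pde6a (-0.46) and Cngb1 (-0.36) followed. Cnga1 (0.23) and Sag (0.23) had the opposite sign. The median difference was -0.10 over the 9 rod genes and 0.06 over all tested genes. The 4 libraries leave no residual degrees of freedom for this difference, and it was not tested.

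Other genes of the rod light response were taken from lists of known photoreceptor genes. Of 14 cascade partners, Slc24a1, the sodium-calcium-potassium exchanger of rods, was the 1 that was 1.5-fold higher in the knockout than in WT, with 44.4 FPKM (38.6 to 50.2) in the knockout and 29.0 FPKM (25.4 to 32.7) in WT (log2 ratio 0.60). It fell short of 1.5-fold when ratios were centred on the regulators. This is 1 of 14, beside 0.966% of all tested genes. None was 1.5-fold lower, and the median was 0.15. Gucy2e, which encodes a photoreceptor guanylate cyclase, was the other partner with intervals apart (0.45), which makes 2 of 14 beside 0.76% of all tested genes. In the stabilized library against WT the same list had a median of -0.28 with 11 of 14 ratios below 0, beside 7078 of all 13150 tested genes. Gngt1, the gamma subunit of rod transducin, was the 1 member 1.5-fold lower, at 744 FPKM in the stabilized library, against 1227 FPKM in WT (log2 -0.72). Intervals were also apart for the calcium sensor genes Rcvrn (-0.41) and Guca1a (-0.55) and for the pigment kinase gene Grk1 (-0.56). In all, 4 of 14 had intervals apart and 1 of 14 was 1.5-fold lower, beside 3.33% and 1.71% of all tested genes. Centred on the regulators, 3 of 14 were 1.5-fold lower, Grk1 and Guca1a with Gngt1. In the stabilized knockout against the knockout none of the 14 was 1.5-fold apart and the median was -0.07. Slc24a1 (-0.57), Rcvrn (-0.47) and Grk1 (-0.46) had intervals apart there, 3 of 14 beside 1.75% of all tested genes. Slc24a1 passed 1.5-fold lower when ratios were centred on all genes or rescaled to the same total. Against WT, the stabilized knockout had no cascade partner 1.5-fold apart, with a median of -0.03. Of the ratios 7 were above 0 and 7 below, beside 6852 and 6266 of all 13150 tested genes. Intervals were apart for Gngt1 (-0.54) and Gucy2e (0.43), 2 of 14 beside 2.48% of all tested genes. Gngt1 passed 1.5-fold when centred on the regulators. In the stabilized knockout over the stabilized library all 14 ratios were above 0, beside 8284 of all 13150 tested genes. None was 1.5-fold apart, and the median was 0.20, beside 0.04 over all tested genes. Rescaling to the same total put the median of all tested genes at -0.03 there. Slc24a1 (0.38) alone had intervals apart, 1 of 14 beside 0.525% of all tested genes.

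The other transducin subunits were measured beside Gnat1. The beta subunit gene Gnb1 was at 907 FPKM in the stabilized knockout, 938 FPKM in the knockout and 843 FPKM in the stabilized library, against 797 FPKM in WT, with all intervals overlapping. Gngt1 was at 847 FPKM in the stabilized knockout, 1037 FPKM in the knockout and 744 FPKM in the stabilized library, against 1227 FPKM in WT. Gngt1 was highest in WT, but its intervals in the knockout (873 to 1202) and WT (1026 to 1428) overlapped. Among the further partners of high level, Pdc, which encodes phosducin, lay between 1419 and 1791 FPKM and Pde6g, the inhibitory subunit of the phosphodiesterase, between 720 and 924 FPKM, both lowest in the stabilized library.

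Of 16 outer segment genes 15 were in the table and 14 were tested, Prom1 being left out by its status. None was 1.5-fold apart between the knockout and WT, where 13 of 14 ratios were above 0 and the median was 0.22, beside 5741 of 13150 above 0 and a median of -0.02 over all tested genes. Rbp3, which encodes the retinoid carrier of the matrix around photoreceptors, was 1.5-fold higher in both libraries with stabilized beta-catenin than in WT, at 419 FPKM in the stabilized knockout and 421 FPKM in the stabilized library, against 250.1 FPKM in WT. Its log2 ratio was 0.74 for the stabilized knockout and 0.75 for the stabilized library. Rbp3 was the 1 of 14 that was 1.5-fold higher in each of these comparisons, beside 1.79% and 1.67% of all tested genes. In the knockout it was at 350 FPKM, with a log2 ratio of 0.48 over WT and overlapping intervals. The ratio of the stabilized knockout over the knockout was 0.26, also with overlapping intervals. Impg1, of the same matrix, had intervals apart in the stabilized knockout over WT (0.38). Rdh12, a photoreceptor retinol dehydrogenase, was lower with intervals apart in the stabilized library over WT (-0.48) and in the stabilized knockout over the knockout (-0.41), and so was Aipl1, a chaperone of the phosphodiesterase, in the second of these (-0.39). Of the 14, 2 had intervals apart in the stabilized library over WT, beside 3.33% of all tested genes. In the stabilized knockout 2 of 14 had intervals apart over the knockout and 2 over WT, beside 1.75% and 2.48%. Centred on the regulators, Rdh12 was 1.5-fold lower in the stabilized library over WT. Prph2 was at 657, 684, 624 and 623 FPKM in the stabilized knockout, knockout, stabilized and WT libraries. Of 6 channel and terminal genes, Cabp4, a calcium-binding protein of the photoreceptor synapse, was 1.5-fold lower in the stabilized knockout than in the knockout (38.6 against 59.8 FPKM, log2 -0.63). This is 1 of 6, beside 0.92% of all tested genes. None of the 6 was 1.5-fold apart in the knockout or the stabilized library against WT. Cabp4 had intervals apart in the stabilized library over WT (-0.53) and passed 1.5-fold there when centred on the regulators. Its intervals were also apart in the stabilized knockout over the knockout. That makes 1 of 6 in each comparison, beside 3.33% and 1.75% of all tested genes. In the stabilized knockout over the stabilized library, 13 of 14 outer segment and 6 of 6 channel and terminal ratios were above 0. For all tested genes it was 8284 of 13150. The medians were 0.09 and 0.07, beside 0.04 over all tested genes, and all intervals overlapped.

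Of 11 photoreceptor regulators 10 were tested, Mef2c being below the minimum, and none was 1.5-fold apart in the comparisons with WT or of the stabilized knockout with the knockout. Crx, the homeobox activator of photoreceptor genes, was at 496 FPKM in the stabilized knockout, 447 FPKM in the knockout and 468 FPKM in the stabilized library, against 421 FPKM in WT. The medians of the list were 0.05 for the knockout over WT, 0.12 for the stabilized library over WT and -0.01 for the stabilized knockout over the knockout.

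**Figure D3:**
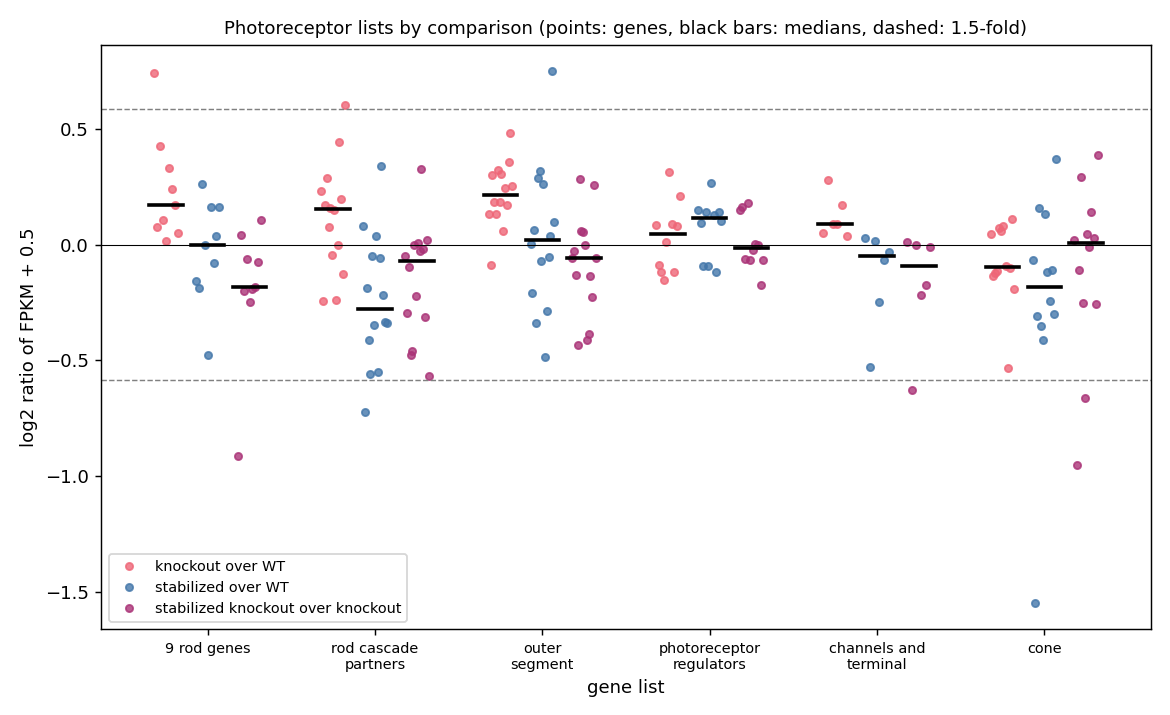
Log2 ratio of FPKM plus 0.5 (vertical axis) of the genes of 6 photoreceptor lists (horizontal axis) in 3 comparisons, with points for genes, black bars for list medians and dashed lines at 1.5-fold. Outside Gnat1, the genes past the lines are Slc24a1 (0.60), Gngt1 (-0.72), Rbp3 (0.75), Cabp4 (-0.63), Opn1mw (-1.55 and -0.95) and Pde6h (-0.66).

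Among genes of other cells, cone genes had a median of -0.10 in the knockout over WT with none of 12 at 1.5-fold. Gngt2 was lower there with intervals apart (-0.53), 1 of 12 beside 0.76% of all tested genes. The cone opsin gene Opn1mw was at 9.22 FPKM in the stabilized knockout, 18.3 FPKM in the knockout and 6.56 FPKM in the stabilized library, against 20.1 FPKM in WT. Opn1sw, the other cone opsin gene, had a higher and flatter level. It was at 90.7 FPKM in the stabilized knockout, 89.4 FPKM in the knockout and 82.5 FPKM in the stabilized library, against 86.5 FPKM in WT, with overlapping intervals. Gnat2, the cone counterpart of Gnat1, was at 27.9 FPKM in the stabilized knockout, 30.1 FPKM in the knockout and 26.4 FPKM in the stabilized library, against 32.8 FPKM in WT. Gnat1 relative to Gnat2 was 7.63, 13.3, 8.13 and 7.30 in these libraries. Opn1mw and Pde6h were 1.5-fold lower in the stabilized knockout over the knockout (-0.95 and -0.66) and over WT (-1.09 and -0.60). That is 2 of 12 cone genes in each comparison, beside 0.92% and 1.07% of all tested genes. Markers of other cells also differed between libraries. The 8 tested endothelial genes summed to 83.3 FPKM in the stabilized knockout, 50.2 FPKM in the knockout and 87.1 FPKM in the stabilized library, against 54.1 FPKM in WT. Kdr, a receptor gene of this list, made up 39.0 to 47.7 FPKM of these sums. Its log2 ratio was 0.29 in the stabilized library over WT and 0.20 in the stabilized knockout over the knockout. The intervals overlapped in both comparisons. Of the 8, 6 were 1.5-fold higher in the stabilized library over WT and 6 in the stabilized knockout over the knockout. The shares of all tested genes were 1.67% and 1.76%. The endothelial medians were 1.15 and 1.01, beside -0.02 and 0.03 over all tested genes. Cldn5, a tight junction gene, was at 0.675 FPKM in the knockout, against 6.91 FPKM in WT (-2.66). It was the 1 of 8 endothelial genes 1.5-fold lower in that comparison, beside 1.22% of all tested genes. The endothelial median there was 0.04, with 5 of 8 ratios above 0, beside 5741 of all 13150 tested genes. Cldn5 and Cdh5, which was higher in the knockout (0.57), had intervals apart, 2 of 8 beside 0.76% of all tested genes. In the order stabilized knockout, knockout, stabilized and WT, the 3 erythroid genes, which include near-identical globin copies, summed to 160, 62.9, 148 and 66.5 FPKM. The 5 pigment epithelium genes summed to 42.5, 54.4, 61.3 and 47.6 FPKM. The 9 ganglion cell genes had a median of 0.27 in the knockout over WT. Bipolar genes (0.07), Muller glia genes (0.08), and amacrine and horizontal cell genes (-0.02) were closer to 0 in that comparison. In the stabilized library over WT the median was -0.18 for cone genes, beside -0.02 over all tested genes. Of the cone genes 9 of 12 were below 0, beside 7078 of all 13150 tested genes. Opn1mw and Pde6h, 2 of 12, had intervals apart, beside 3.33% of all tested genes. The medians there were 0.39 for ganglion cell, -0.15 for bipolar, -0.10 for Muller glia, and 0.05 for amacrine and horizontal cell genes. Calls of 1.5-fold lower were 1 of 12 cone genes (Opn1mw, -1.55), 1 of 10 bipolar genes (Gng13, -0.73) and 1 of 10 Muller glia genes (Aqp4, -0.85). The share of all tested genes was 1.71%. Pcp2 (-0.55), Gng13 and Cabp5 (-0.37), 3 of 10 bipolar genes, and Aqp4, 1 of 10 Muller glia genes, had intervals apart, beside 3.33% of all tested genes. In the same comparison 3 of 9 ganglion cell genes (Pou4f1, Pou4f2 and Nefm) and 3 of 5 pigment epithelium genes (Rpe65, Rgr and Pmel) were 1.5-fold higher. The share of all tested genes was 1.67%. Centred on the regulators, 1 of the ganglion cell genes and 2 of the pigment epithelium genes were, beside 156 of all 13150 tested genes. The part of these differences in the rod values was not tested.

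Similarity of pattern was measured as the root mean square difference from a rod gene over the 4 libraries, on log2(FPKM + 0.5) centred on each gene's mean, among 6551 genes of at least 10 FPKM. The 5 genes most like Gnat1 were Slc24a1 (0.15), Slc16a6, a monocarboxylate transporter family gene (0.16), Alpl, the alkaline phosphatase gene (0.16), Rdh8, a photoreceptor retinol dehydrogenase (0.17), and Cabp4 (0.18). Rdh8 was at 70.5 FPKM in the stabilized knockout, 98.5 FPKM in the knockout and 66.3 FPKM in the stabilized library, against 75.8 FPKM in WT. Alpl was at 19.0 FPKM in the stabilized knockout, 29.5 FPKM in the knockout and 16.1 FPKM in the stabilized library, against 22.9 FPKM in WT. These genes were highest in the knockout and lowest in the stabilized library, whereas Gnat1 was lowest in the stabilized knockout by a small margin. Only 8 genes lay within 0.2 of Gnat1. For Nrl 6287 genes did, so its nearest genes, Mtmr4, Maneal, Mtfp1, Rnf126 and Fam149a, mark a near-flat pattern that most genes had. The deposited interval of Rnf126 ran from 0 to at least 205 FPKM in every library.

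**Figure D4:**
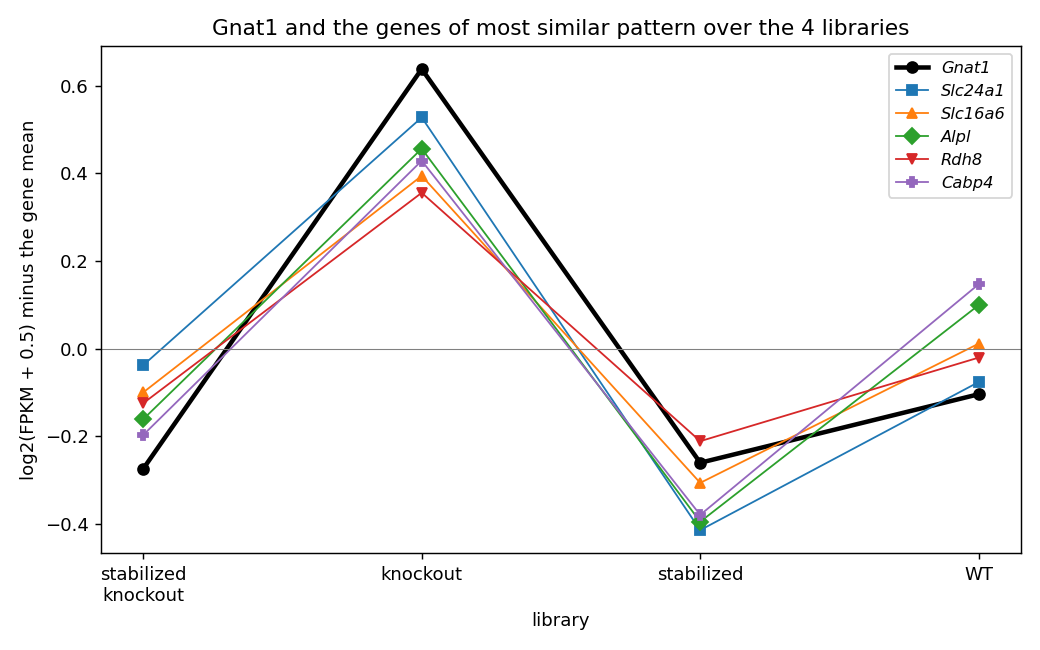
Log2(FPKM + 0.5) minus the gene's mean over the 4 libraries (vertical axis) for Gnat1 and the 5 genes of most similar pattern, by library (horizontal axis). Lines join the values of a gene and show no order in time. All 6 genes peak in the knockout.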

How the data were processed

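The authors deposited 1 table of FPKM per gene and library, each with its interval and a status. TopHat, Cuffdiff and mm10 are named in the submitters' processing notes, without versions, and the annotation, read length, strand and interval level were not given in the sources used here. Per the labels' protocols a TruSeq kit was used for the libraries. FPKM are relative within a library, so abundant RNAs shift all others. Columns were assigned by the number shared by column name and sample description.

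Log2 ratios used a pseudocount of 0.5. Genes needed a mean of at least 1 FPKM and status OK in each library (145 genes had another). A call means at least 1.5-fold, and no p-value was computed. The rule for naming took the 9 rod genes, list genes past 1.5-fold (at most 4 per direction) and up to 3 of highest level. It also took the 5 most similar in pattern to Gnat1 and to Nrl, and Ndp, Xist and Ddx3y as label checks. Not every list gene past 1.5-fold is named in the results, the endothelial genes Tie1, Eng and Sox18 being examples. Rcvrn, Guca1a, Grk1, Gucy2e, Impg1, Rdh12, Aipl1, Kdr, Gnat2, Opn1sw, Mef2c and Prom1 were named after their values were seen. The members and lists were chosen with earlier results of these data known. None of the rod loci overlapped another gene of the table. Depth was read from the commonest squared ratio of a value to its SD, taking the distance to the upper bound as 2 SD. Strand came from GENCODE M21, and promoters from RefSeq. Python 3.11.15, numpy 2.4.6, pandas 2.3.3 and matplotlib 3.10.9 were used.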

Additional observations from a re-analysis of the deposited data

Results flagged for a closer look

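For 4 rod genes the ratio for stabilized beta-catenin had opposite signs in the knockout and WT backgrounds, which is what brought them to attention; each background has 1 pair of libraries, and the differences were not tested. For Pde6a it was -0.20 in the knockout background and 0.26 in the WT background, a difference of -0.46. For Cngb1 it was -0.19 and 0.17 (difference -0.36), for Sag 0.04 and -0.19 (difference 0.23), and for Nrl -0.08 and 0.04 (difference -0.11). The intervals of the libraries compared overlapped for all 4 genes. The value of 0.04 for Nrl changed sign when ratios were centred on the photoreceptor regulators.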

How the results depend on the processing

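No paired analysis was possible because each genotype has 1 library. With a 2-fold limit, and without Gnat1, the rod gene of largest ratio, 0 rod genes were higher in the knockout than in WT and 0 lower in the stabilized knockout than in the knockout, in place of 1 each. Centring on the photoreceptor regulators, chosen after seeing the data, put 1 rod gene, Cnga1, past 1.5-fold lower in the stabilized library over WT; that setting placed the median of all tested genes at -0.14 there, in place of -0.02. The other 150 summary values of the rod genes stayed within their limits, and no called ratio of a rod gene changed sign. Single ratios of rod genes moved by at most 0.07 on the log2 scale under the planned pseudocounts, minimum means and scalings. The pooled libraries give no measure of variation between mice, and Ndp genotype goes with sex.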
